A study of Mus musculus with 9 samples.

Results

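The 9 genes described here encode transcription factors that set up and maintain the myeloid lineage. They are Spi1, which encodes PU.1, Runx1, Klf4, the C/EBP genes Cebpa, Cebpb, Cebpd and Cebpe, and the interferon regulatory factor genes Irf4 and Irf5. They were taken by symbol from the deposited table of FPKM values (fragments per kilobase of gene length, scaled to the library), which lists 54532 genes, and all 9 symbols were found once. The deposited table of raw counts holds 9877 genes and 8 of the 9 factors, all but Cebpe. The cells are M-MDSCs, the monocytic kind of myeloid-derived suppressor cell, which dampens T cell responses, sorted from tumours that MC38 cells, a mouse colon carcinoma line, formed in mice. Poly-A RNA was sequenced with a strand-keeping kit in 9 libraries: 3 of genotype LILRB4+/+ SCG2-/- (SCG2 knockout), 3 of genotype LILRB4+/+ (LILRB4) and 3 of WT mice, numbered 1 to 3 within each genotype. The SCG2 knockout libraries therefore carry the LILRB4 allele too, and all 9 come from MC38 tumour bearing animals. The labels leave undescribed the LILRB4 allele and its promoter, the sorting gate and the animal behind each library. P-values therefore reflect only how far these samples spread, and that spread may be technical.

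PU.1 and RUNX1 act early in blood formation, where they open and maintain the regulatory regions of myeloid genes. C/EBP alpha commits progenitors to the granulocyte and monocyte lineages, C/EBP beta takes over in emergency myelopoiesis and in inflammatory macrophages, C/EBP delta amplifies inflammatory transcription, and C/EBP epsilon drives late granulocyte maturation. KLF4 acts downstream of PU.1 in monocyte differentiation, IRF5 promotes inflammatory cytokine transcription in macrophages, and IRF4 is linked to alternative activation, to a class of dendritic cells and to lymphocytes.

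The libraries were first checked against their labels. Deposited counts summed to 14501163 to 17740597 in SCG2 knockout, 17175759 to 27219202 in LILRB4 and 18676591 to 23471040 in WT libraries. Scg2 had 1 recovered count in LILRB4 replicate 1 and 1 in WT replicate 1, and 0 in the other 7 libraries, so it checks no label. Lilrb4a stood at 131 to 157 FPKM in SCG2 knockout, 154 to 274 FPKM in LILRB4 and 47.7 to 138 FPKM in WT libraries, and reads may be split between it and its near copy Lilr4b. The monocyte markers Ly6c2, Ccr2 and Itgam were detected in all 9 libraries, while the neutrophil marker Ly6g did not exceed 0.204 CPM (counts scaled to the library total). The 9 neutrophil markers summed to 176 to 228 CPM in SCG2 knockout, 252 to 362 CPM in LILRB4 and 162 to 236 CPM in WT libraries. All LILRB4 sums lay above all others, and most of the sum was in Il1r2, Csf3r, Hdc and Retnlg. Singly, 3 of the 9 (Retnlg, Cxcr2 and Hdc) were higher in all LILRB4 than in all WT libraries and 0 lower. In SCG2 knockout against LILRB4, 3 (Retnlg, Csf3r and Hdc) were lower in this way and 0 higher. S100a8 and S100a9 overlapped in both comparisons. With recovered counts they stood at 0.287 and 0.229 CPM in LILRB4 replicate 1 and were highest in LILRB4 replicate 2. Summed CPM of 13 T and NK cell markers ranged from 554 to 981 in SCG2 knockout, 138 to 892 in LILRB4 and 155 to 609 in WT libraries, and was lowest in LILRB4 replicate 2 and WT replicate 2. The sum over 5 fibroblast markers was 1942 to 2843 CPM, 1411 to 1908 CPM and 1751 to 2750 CPM in the same order of genotypes, so transcripts typical of other cell types were present too. In these bulk samples, fewer cells of a type and less RNA per cell cannot be told apart.

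The promoters of 6 of the 9 factors are held by the RefSeq promoter table on build GRCm38.p6, in windows of 300 bases that run from 250 bases before to 50 bases after the annotated start. Runx1 has 2 windows, distal and proximal, which makes 7 in all. Spi1, Cebpd and Cebpe have none there. Irf4, Irf5 and the distal Runx1 window are printed because Irf4 and Irf5 had the smallest unadjusted p-values of the 9 factors and the distal Runx1 window holds the RUNX-type matches. Capitals mark the letters of 5 short motifs searched on both strands.
Irf4, chr13:30748983-30749282, plus strand: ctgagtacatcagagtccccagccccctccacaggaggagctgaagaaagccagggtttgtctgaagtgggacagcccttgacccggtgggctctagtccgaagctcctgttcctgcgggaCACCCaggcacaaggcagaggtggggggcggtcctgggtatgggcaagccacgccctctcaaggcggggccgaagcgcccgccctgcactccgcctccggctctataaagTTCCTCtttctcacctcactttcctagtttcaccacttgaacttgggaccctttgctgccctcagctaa
Irf5, chr6:29526375-29526674, plus strand: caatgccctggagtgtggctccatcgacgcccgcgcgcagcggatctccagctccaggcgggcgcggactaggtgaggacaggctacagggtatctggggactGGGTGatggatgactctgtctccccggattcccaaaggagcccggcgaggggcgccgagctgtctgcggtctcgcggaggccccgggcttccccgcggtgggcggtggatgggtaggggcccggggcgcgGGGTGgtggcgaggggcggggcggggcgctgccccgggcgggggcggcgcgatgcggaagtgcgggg
Runx1 distal, chr16:92826025-92826324, minus strand: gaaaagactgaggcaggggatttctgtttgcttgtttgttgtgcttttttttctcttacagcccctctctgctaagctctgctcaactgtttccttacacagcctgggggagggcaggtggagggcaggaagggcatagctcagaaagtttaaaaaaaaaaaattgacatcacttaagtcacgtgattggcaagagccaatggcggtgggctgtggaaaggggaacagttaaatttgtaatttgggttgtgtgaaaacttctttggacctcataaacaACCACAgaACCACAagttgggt
The PU.1-type core GAGGAA was found in the Irf4 window, 19 bases before the start, and in the proximal Runx1 window, 46 bases before the start. That is 2 of 7 windows, against 28.3% of all 32851 promoters in the table. The RUNX-type core TGTGGT was found in the distal Runx1 window, 28 and 36 bases after the start, which is 1 of 7 windows against 16.8% of all promoters. The KLF-type core CACCC was in 5 of 7 windows, those of Cebpa, Cebpb, Irf4, Irf5 and proximal Runx1, against 57.5% of all promoters. Neither the C/EBP-type palindrome TTGCNNAA, held by 10.8% of all promoters, nor the IRF-type repeat (GAAA, any 2 bases, GAAA), held by 3.44%, was in any of the 7. These letter matches are descriptions of the windows, not binding sites.

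The 9 factors spanned a range of levels from the most abundant transcripts of these cells to some of the scarcest. Among 10747 protein-coding genes with a mean of 1 FPKM or more, Cebpb ranked 100th at a mean of 407 FPKM over all 9 libraries and Klf4 ranked 178th at 255 FPKM. Irf5 ranked 688th at 69.8 FPKM, Spi1 892nd at 55.0 FPKM and Cebpa 1437th at 34.6 FPKM. Runx1 at 13.4 FPKM, Cebpd at 8.26 FPKM and Irf4 at 6.37 FPKM lay in the middle of the distribution, and Cebpe at 2.51 FPKM ranked 8899th. The order of Cebpb, Klf4, Irf5 and Spi1 at the top of the group means was shared by the 3 genotypes. Neighbours in that order did not always keep it within a library: in SCG2 knockout, Cebpb stood above Klf4 in replicate 1 alone and Klf4 above Cebpb in replicates 2 and 3, whereas Cebpb stood above Klf4 in every LILRB4 and WT library. The ranges of Irf5 and Spi1 overlapped in all 3 genotypes, but Irf5 stood above Spi1 in 3 of 3 libraries of each. Irf4 lay above Cebpd in the mean of LILRB4 libraries and below it in the means of SCG2 knockout and WT libraries, with overlapping ranges in each. Within a library, Irf4 stood above Cebpd in 2 of 3 LILRB4 libraries. Cebpd stood above Irf4 in 2 of 3 SCG2 knockout libraries and in 3 of 3 WT libraries.

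**Figure D1:**
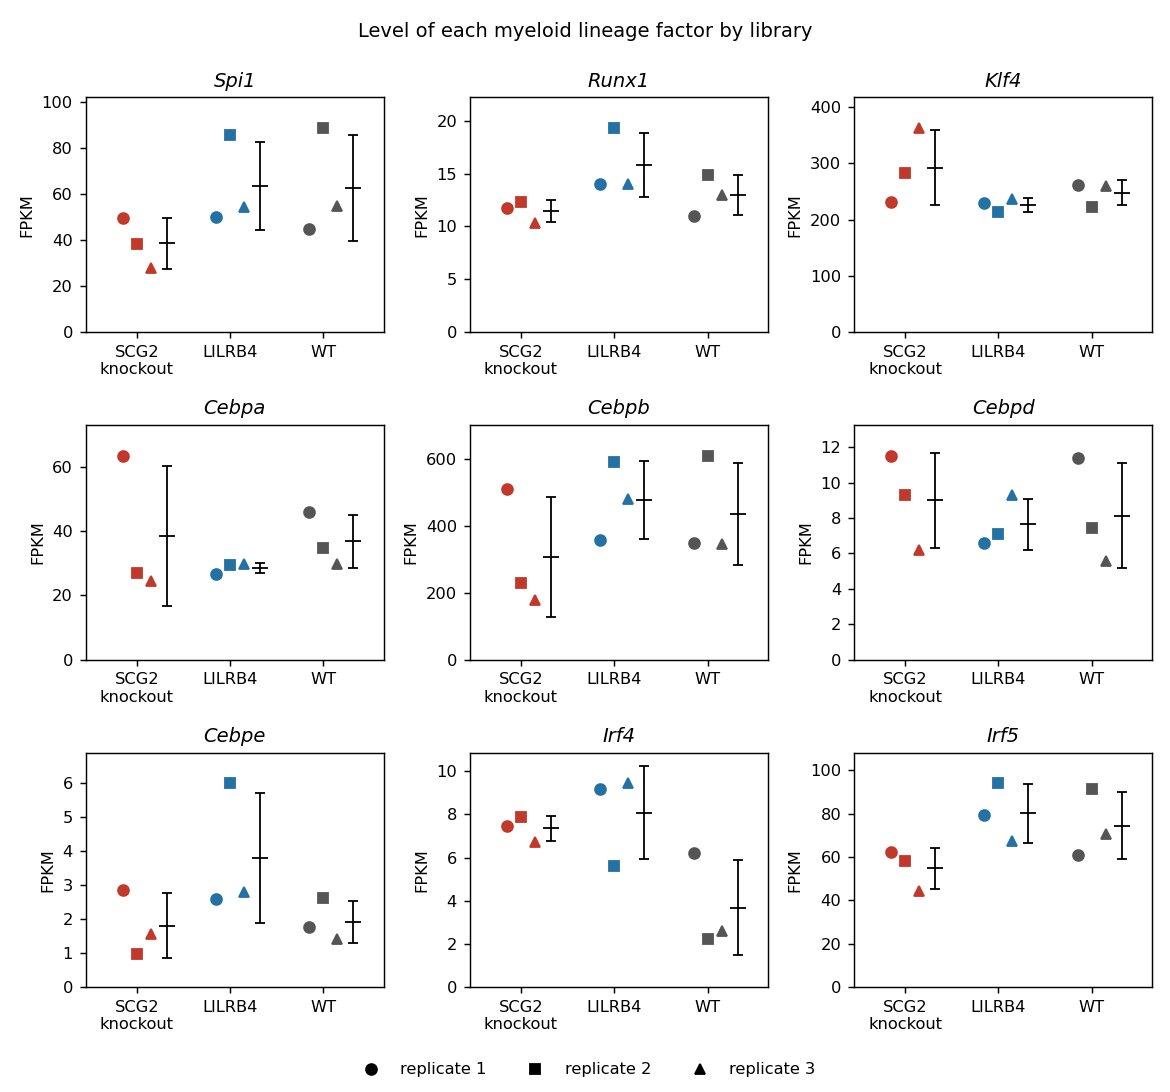
FPKM (vertical axes, linear from 0) of each of the 9 factors in SCG2 knockout, LILRB4 and WT libraries; points are single libraries with symbols for replicates 1 to 3, and the bar beside each group is the mean ± SD (n = 3). Irf4 stands at 6.74 to 7.88 FPKM in SCG2 knockout, 5.60 to 9.44 FPKM in LILRB4 and 2.24 to 6.22 FPKM in WT libraries, while Spi1 is highest in LILRB4 replicate 2 and WT replicate 2.

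Spi1 and Runx1 are the factors with the earliest roles of the set. Exon numbers given here and below count exons pooled over all annotated transcripts of a gene, with overlapping exons merged. Spi1 (ENSMUSG00000002111, GRCm38 chromosome 2, 91082390 to 91115756, plus strand, 7 exons) stood at 49.7, 38.1 and 27.8 FPKM in SCG2 knockout replicates 1 to 3, 50.3, 85.7 and 54.6 FPKM in LILRB4 and 44.9, 88.8 and 54.9 FPKM in WT. All 3 SCG2 knockout libraries lay below all 3 LILRB4 libraries, and 1 of them, replicate 1, lay above the lowest WT library. Replicate 2 was the highest library of both LILRB4 and WT, which left the means of LILRB4 (63.5 ± 19.3 FPKM) and WT (62.9 ± 23.0 FPKM) close to each other beside an SCG2 knockout mean of 38.5 ± 10.9 FPKM (SD, n = 3 each). Runx1 (ENSMUSG00000022952, chromosome 16, 92601466 to 92826149, minus strand, 9 exons) stood at 11.7, 12.3 and 10.3 FPKM in SCG2 knockout, 14.0, 19.3 and 14.0 FPKM in LILRB4 and 11.0, 14.8 and 13.0 FPKM in WT. Its SCG2 knockout libraries also lay below every LILRB4 library and within the WT range or just under it. The coefficient of variation of Runx1 was 9.14% in SCG2 knockout, 19.3% in LILRB4 and 14.8% in WT libraries.

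Klf4, which promotes monocyte differentiation, ran against Spi1 across libraries. Klf4 (ENSMUSG00000003032, chromosome 4, 55527143 to 55532466, minus strand, 5 exons) stood at 232, 282 and 363 FPKM in SCG2 knockout, 230, 213 and 236 FPKM in LILRB4 and 261, 221 and 260 FPKM in WT. SCG2 knockout replicate 3, which had the lowest Spi1 of the 9 libraries, had the highest Klf4. LILRB4 replicate 2 and WT replicate 2, which had the highest Spi1, had the lowest Klf4 of all 9. SCG2 knockout replicate 1 lay inside the LILRB4 range, and the other SCG2 knockout libraries lay above it.

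Of the C/EBP genes, Cebpb supplied most of the transcript and Cebpe the least. Cebpb (ENSMUSG00000056501, chromosome 2, 167688915 to 167690418, plus strand, a single exon) stood at 512, 230 and 178 FPKM in SCG2 knockout, 359, 592 and 481 FPKM in LILRB4 and 351, 611 and 346 FPKM in WT. SCG2 knockout replicates 2 and 3 were the lowest of the 9 libraries, while replicate 1 lay inside the ranges of both other genotypes, and the SCG2 knockout mean of 307 FPKM carries an SD of 180. Cebpa (ENSMUSG00000034957, chromosome 7, 35119293 to 35121928, plus strand, a single exon) stood at 63.4, 27.0 and 24.5 FPKM in SCG2 knockout, 26.7, 29.4 and 29.6 FPKM in LILRB4 and 45.9, 34.8 and 29.7 FPKM in WT. All 3 LILRB4 libraries lay below all 3 WT libraries, although WT replicate 3 was almost level with LILRB4 replicate 3, and SCG2 knockout replicate 1 was the highest of all 9. That library held the highest value of its genotype for 6 of the 9 factors, namely Spi1, Irf5 and all 4 C/EBP genes.

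The remaining C/EBP genes were low. Cebpd (ENSMUSG00000071637, chromosome 16, 15887286 to 15891031, plus strand, a single exon) stood at 11.5, 9.27 and 6.18 FPKM in SCG2 knockout, 6.58, 7.08 and 9.29 FPKM in LILRB4 and 11.4, 7.46 and 5.55 FPKM in WT, and the 3 ranges overlapped. Cebpe (ENSMUSG00000052435, chromosome 14, 54710360 to 54712174, minus strand, 2 exons) stood at 2.86, 0.988 and 1.57 FPKM in SCG2 knockout, 2.60, 6.01 and 2.80 FPKM in LILRB4 and 1.77, 2.61 and 1.41 FPKM in WT. LILRB4 replicate 2 was far above the other 8 libraries, and these values rest on only 21 to 177 recovered counts per library. Cebpb made up 84.7 to 86.8% of the summed FPKM of the 4 C/EBP genes in SCG2 knockout libraries, 90.9 to 93.3% in LILRB4 libraries and 85.6 to 93.2% in WT libraries. Cebpa made up 10.1 to 11.7%, 4.63 to 6.77% and 5.31 to 11.2% in the same order of genotypes. Exons of 3 factors overlap those of a protein-coding gene on the other strand, Cebpb by 312 bases with Tmem189, Cebpd by 562 bases with Spidr and Irf5 by 411 bases with Tnpo3. The strand setting of the counting is not given in the sources used here, and whether reads of these neighbours were counted was not tested.

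The interferon regulatory factor genes differed widely in level, with Irf5 far above Irf4 in every library. Irf5 (ENSMUSG00000029771, chromosome 6, 29526625 to 29541871, plus strand, 13 exons) stood at 62.1, 58.2 and 44.2 FPKM in SCG2 knockout, 79.2, 94.0 and 67.1 FPKM in LILRB4 and 61.0, 91.4 and 70.7 FPKM in WT. All SCG2 knockout libraries lay below all LILRB4 libraries, and 1 of them lay inside the WT range. Irf4 (ENSMUSG00000021356, chromosome 13, 30749226 to 30766976, plus strand, 10 exons) stood at 7.45, 7.88 and 6.74 FPKM in SCG2 knockout, 9.17, 5.60 and 9.44 FPKM in LILRB4 and 6.22, 2.24 and 2.60 FPKM in WT. All SCG2 knockout libraries lay above all WT libraries, whereas LILRB4 replicate 2 fell below WT replicate 1. Irf5 is the 1 factor whose 2 deposited tables disagree: LILRB4 replicate 1 has 5781 counts in the count table and 3781 in the counts recovered from FPKM. The files do not say which is intended, so both are given wherever Irf5 is tested.

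The effect of the LILRB4 genotype is addressed by LILRB4 against WT, where Irf4 was the factor with the widest difference. Irf4 averaged 8.07 ± 2.14 FPKM in LILRB4 and 3.69 ± 2.20 FPKM in WT libraries (SD, n = 3 each), a log2 fold change of 1.09 (SE 0.37, 95% interval 0.26 to 1.93) that did not pass over all genes (edgeR adjusted p = 0.129). Spi1, the factor that defines the lineage, stood at a log2 fold change of -0.02 with a 95% interval of -0.66 to 0.62 on both sides of 0. Cebpe stood at 0.66 by limma on log2(FPKM + 1) (limma adjusted p = 0.283). None of the 9 factors passed, at a background of 2.25% of 9877 genes called with the deposited counts, 0.87% of 15743 genes with recovered counts and 0.79% of 12910 genes by limma on FPKM. At an unadjusted p under 0.05, 1 of the 8 factors in the count table, Irf4, was counted by edgeR, against 22.6% of all genes.

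The Irf4 call depended on the test and on 1 library. DESeq2 on the same counts gave 1.12 and called Irf4 (DESeq2 adjusted p = 0.0287), where 6.2% of all genes were called higher. Without WT replicate 1, edgeR gave 1.73 and called Irf4 (edgeR adjusted p = 0.0378). Over all alternatives its log2 fold change was 0.84 to 1.73 and its adjusted p 0.0287 to 0.367. The other log2 fold changes were -0.40 for Cebpa (edgeR adjusted p = 0.482), 0.25 for Runx1 (edgeR adjusted p = 0.356), -0.16 for Klf4, -0.12 for Cebpd and 0.10 for Cebpb. Irf5 stood at 0.31 with the deposited counts and at 0.09 with recovered counts (edgeR adjusted p = 0.424 and 0.826), the tables differing in 1 value of LILRB4 replicate 1. Cebpa was the only factor whose LILRB4 and WT ranges of FPKM did not overlap, downward, where 12.9% of genes did the same, and no factor separated upward, against 11.2% of genes. Summed markers of lymphocytes and dendritic cells moved with Irf4 across the LILRB4 and WT libraries. Sums over the T and NK cell list were 892, 138 and 735 CPM in LILRB4 replicates 1 to 3 and 609, 155 and 214 CPM in WT, lowest where Irf4 was lowest within each genotype. Sums over 7 B and plasma cell markers were 78.3, 8.06 and 89.3 CPM in LILRB4 and 67.5, 8.26 and 13.5 CPM in WT, and Jchain made up most of them. The 7 dendritic cell markers summed to 481, 296 and 421 CPM in LILRB4 and 386, 278 and 311 CPM in WT. Most of the change in that sum was in Ccr7, at 230, 47.6 and 219 CPM in LILRB4 and 149, 77.7 and 93.1 CPM in WT. Not all of the 7 followed Irf4: Itgax was highest in LILRB4 replicate 2, at 224 CPM, and Cd209a in WT replicate 2, at 10.1 CPM, where Irf4 was lowest. None of the markers of these lists was at 0 in all libraries, and the part of these cells in the Irf4 difference was not tested.

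**Figure D2:**
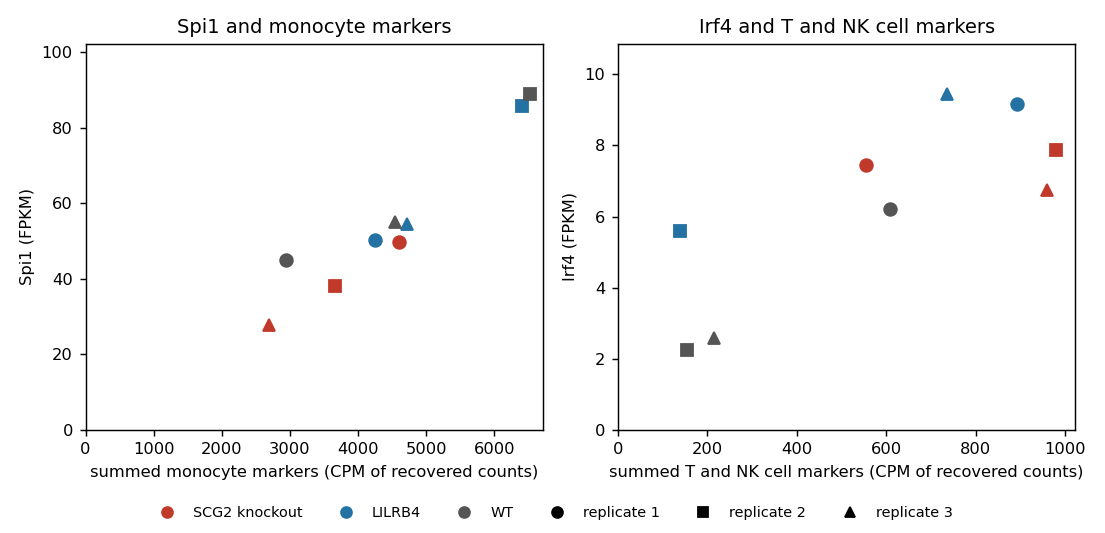
Left, Spi1 (FPKM) against the summed CPM of 11 monocyte markers; right, Irf4 (FPKM) against the summed CPM of 13 T and NK cell markers, both axes linear from 0, 1 point per library. Spi1 is highest in the 2 libraries with the highest monocyte sums, 6398 CPM in LILRB4 replicate 2 and 6519 CPM in WT replicate 2, and the 3 libraries with the lowest T and NK cell sums (LILRB4 replicate 2 and WT replicates 2 and 3) have the 3 lowest Irf4 values.

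The effect of removing SCG2 from LILRB4 animals is addressed by SCG2 knockout against LILRB4. Spi1, Irf5 and Runx1 lay lower in every SCG2 knockout library than in every LILRB4 library, and Klf4 was higher on average, but none passed the test over all genes. Irf5 averaged 54.9 ± 9.42 FPKM in SCG2 knockout and 80.1 ± 13.4 FPKM in LILRB4 libraries (SD, n = 3 each). Its log2 fold change was -0.72 with the deposited counts (SE 0.22, edgeR adjusted p = 0.319) and -0.52 with recovered counts (SE 0.20, edgeR adjusted p = 0.500). Spi1 stood at -0.66 (95% interval -1.30 to -0.02, edgeR adjusted p = 0.439) and Runx1, at 11.4 ± 1.05 FPKM in SCG2 knockout and 15.8 ± 3.05 FPKM in LILRB4 libraries, at -0.40 (95% interval -0.76 to -0.05, edgeR adjusted p = 0.392). Klf4 averaged 292 ± 66.0 FPKM in SCG2 knockout and 226 ± 12.0 FPKM in LILRB4 libraries, with edgeR at 0.43 on the log2 scale (SE 0.19, edgeR adjusted p = 0.451).

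No gene at all passed in this comparison: 0% were called with the deposited counts, the recovered counts and limma on FPKM. With DESeq2 13 genes (0.132%) were higher and 162 (1.64%) lower, none of them a factor of this set. At an unadjusted p under 0.05 edgeR counted 4 of 8 factors (Irf5, Runx1, Spi1 and Klf4) and 11.1% of all genes, 482 higher (4.88%) and 610 lower (6.18%). With recovered counts and by limma the count was 4 of 9 factors, beside 8.72% and 9.19% of all genes. In both, Cebpe was counted (unadjusted p = 0.0453 by edgeR and 0.0383 by limma) and Klf4 was not (0.0601 and 0.0980). The 3 factors without overlap, all lower, stand beside 9.61% of genes lower without overlap, and no factor was higher without overlap, where 6.46% of genes were. Cebpb stood at -0.58 (edgeR adjusted p = 0.604), Cebpa at 0.48 (edgeR adjusted p = 0.621), Cebpd at 0.28 and Irf4 at -0.08, while Cebpe stood at -0.76 by limma (limma adjusted p = 0.518). Without SCG2 knockout replicate 1 the Cebpa value turned to -0.11 and the Cebpb value was -1.19 (edgeR adjusted p = 0.337). In the same libraries the 11 monocyte markers summed to 2693 to 4595 CPM in SCG2 knockout and 4242 to 6398 CPM in LILRB4, and without Lyz2, whose level differed in the other sense, to 2329 to 3481 CPM and 4228 to 6375 CPM. Of the 11, 7 lay lower in all SCG2 knockout than in all LILRB4 libraries, 1 (Lyz2) higher, and the ranges of others, such as Ly6c1 and Ccr2, overlapped. Cd14 made up most of the sum, at 1299 to 2259 CPM in SCG2 knockout and 2815 to 4002 CPM in LILRB4, and without Cd14 and Lyz2 the other 9 summed to 1030 to 1222 CPM and 1388 to 2372 CPM. The fibroblast marker sum lay higher in all SCG2 knockout libraries than in all LILRB4 libraries, as given above. Of its 5 genes, 3 (Col1a2, Col3a1 and Pdgfra) did so singly and 0 lay lower, while the ranges of Col1a1 and Dcn overlapped. The part of either cell type in these differences was not tested.

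**Figure D3:**
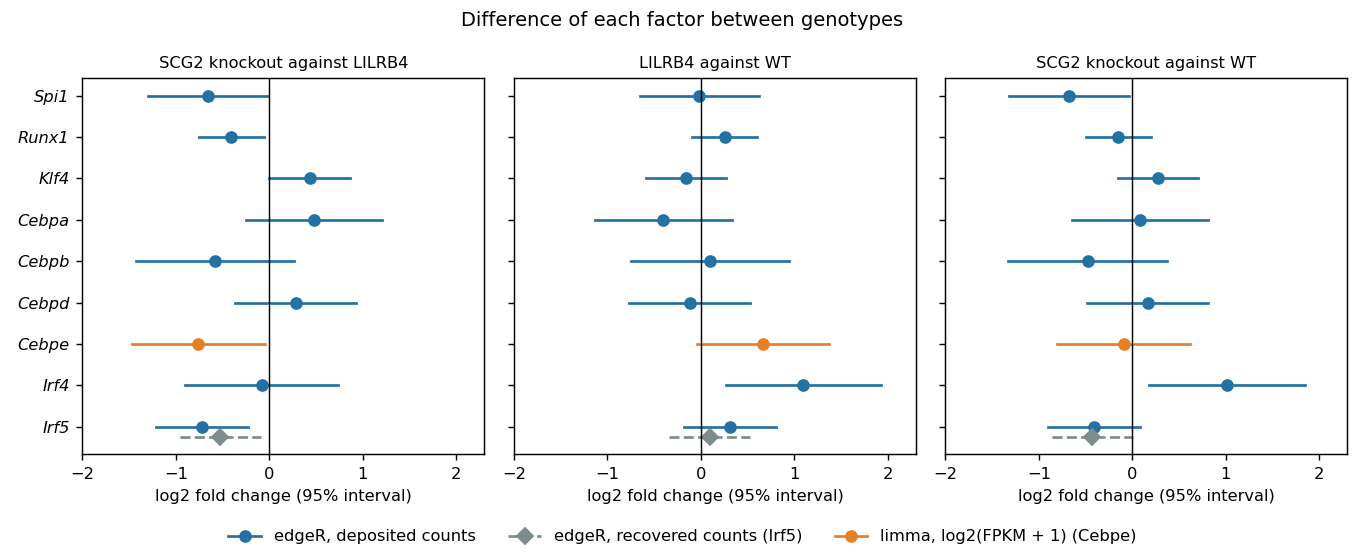
Log2 fold changes (horizontal axes, points) with 95% intervals (lines) of the 9 factors in SCG2 knockout against LILRB4, LILRB4 against WT and SCG2 knockout against WT; 8 factors come from edgeR on deposited counts, Cebpe from limma on log2(FPKM + 1), and diamonds give Irf5 with recovered counts. The Irf4 intervals lie above 0 in both comparisons with WT, at 0.26 to 1.93 and 0.18 to 1.84, but are not adjusted for the number of genes tested.

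SCG2 knockout against WT compares the genotypes that differ in both alleles, and shares its libraries with the other comparisons. Irf4 averaged 7.36 ± 0.58 FPKM in SCG2 knockout and 3.69 ± 2.20 FPKM in WT libraries (SD, n = 3 each), with edgeR at 1.01 on the log2 scale (SE 0.37, edgeR adjusted p = 0.325). Spi1 averaged 38.5 ± 10.9 FPKM in SCG2 knockout and 62.9 ± 23.0 FPKM in WT libraries, with edgeR at -0.68 on the log2 scale (SE 0.29, edgeR adjusted p = 0.334). Neither passed, nor did any other gene, at 0% called with deposited counts, recovered counts and limma on FPKM, while DESeq2 called 69 genes (0.699%) higher and 23 (0.233%) lower with no factor among them. At an unadjusted p under 0.05 edgeR counted these 2 of 8 factors and 14.6% of all genes, 837 higher (8.47%) and 603 lower (6.11%). Irf4 was the 1 factor higher without overlap, beside 11.3% of genes, and no factor was lower without overlap, beside another 11.3% of genes. The other log2 fold changes were -0.48 for Cebpb, -0.41 for Irf5 (-0.43 with recovered counts), 0.27 for Klf4, 0.16 for Cebpd, -0.15 for Runx1, 0.08 for Cebpa and, by limma, -0.10 for Cebpe. Without SCG2 knockout replicate 1 Cebpb stood at -1.07 (edgeR adjusted p = 0.291). Irf4 stood at 1.65 without WT replicate 1 and passed under no alternative run, at adjusted p of 0.106 to 0.799 by edgeR, limma or DESeq2. Dendritic cell markers summed to 402 to 519 CPM in SCG2 knockout and 278 to 386 CPM in WT libraries and endothelial markers to 47.6 to 59.6 CPM and 28.4 to 44.8 CPM, both without overlap, while T and NK cell markers summed to 554 to 981 CPM and 155 to 609 CPM. Of these lists 4 of 7, 1 of 4 and 4 of 13 markers were higher in all SCG2 knockout than in all WT libraries and none lower. The endothelial gene among them was Pecam1, which made up most of that sum. Pecam1 stood at 37.4 to 47.8 CPM in SCG2 knockout and 21.1 to 30.6 CPM in WT libraries. The other endothelial markers, Cdh5, Kdr and Tek, overlapped, with Cdh5 at 6.26 to 12.3 CPM and 5.49 to 9.19 CPM in the same order. The part of these cell types in the Irf4 difference was not tested. The 11 monocyte markers summed to 2693 to 4595 CPM in SCG2 knockout and 2949 to 6519 CPM in WT libraries. Of them, 6 (Ly6c2, Ly6c1, Ccr2, Csf1r, Fcgr1 and Ms4a4c) were lower in all SCG2 knockout than in all WT libraries and 1 (Lyz2) higher. Of 9 macrophage markers, 2 (C1qc and Cd68) were lower in this way and 0 higher. The part of monocytes and macrophages in the Spi1 difference was not tested.

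Ratios between related factors within a library do not depend on its depth. The ratio of Cebpb to Cebpa, the inflammatory to the lineage-committing C/EBP, was 8.07, 8.51 and 7.26 in SCG2 knockout libraries, 13.4, 20.2 and 16.3 in LILRB4 libraries and 7.64, 17.6 and 11.6 in WT libraries. All SCG2 knockout libraries lay below all LILRB4 libraries and within a narrow band, including replicate 1, whose Cebpa and Cebpb were both high. The log2 difference was -1.05 for SCG2 knockout against LILRB4 (exact two-sided permutation p = 0.1, adjusted p = 0.3 over 6 comparisons, lower in 3 of 3 libraries). It was 0.50 for LILRB4 against WT (exact permutation p = 0.3) and -0.55 for SCG2 knockout against WT (exact permutation p = 0.3).

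The ratio of Irf5 to Irf4 was 8.34, 7.39 and 6.56 in SCG2 knockout libraries, 8.64, 16.8 and 7.11 in LILRB4 libraries and 9.81, 40.8 and 27.2 in WT libraries. The SCG2 knockout libraries lay below all WT libraries, and WT replicate 2 had the highest ratio of the 9. The log2 difference was -1.59 for SCG2 knockout against WT (exact permutation p = 0.1, adjusted p = 0.3), -1.14 for LILRB4 against WT (exact permutation p = 0.2) and -0.45 for SCG2 knockout against LILRB4 (exact permutation p = 0.4). With 3 libraries against 3 the smallest p this test can give is 0.1, so neither ratio could pass at 0.05. FPKM values of Irf5 follow the recovered counts.

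**Figure D4:**
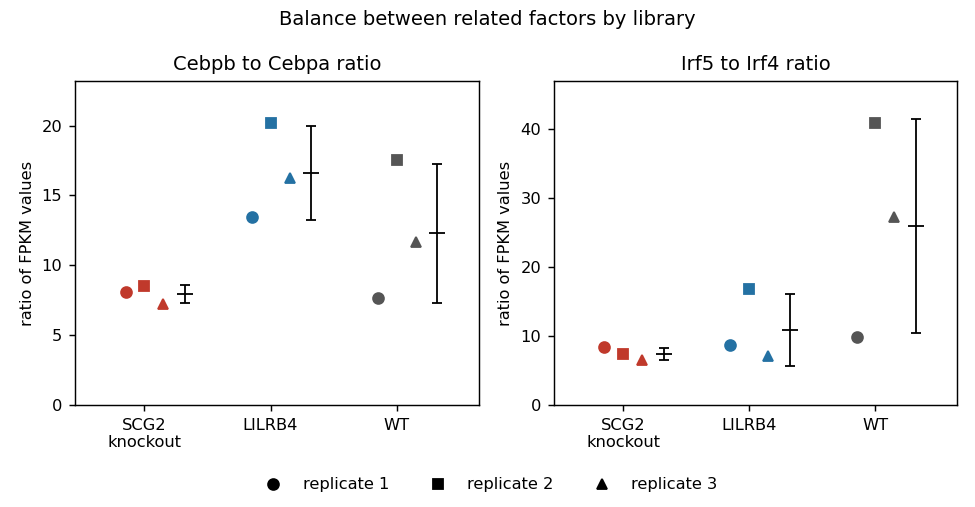
Ratio of FPKM values (vertical axes, linear from 0) of Cebpb to Cebpa and of Irf5 to Irf4 in SCG2 knockout, LILRB4 and WT libraries; points are single libraries, bars mean ± SD (n = 3). The Cebpb to Cebpa ratio sits between 7.26 and 8.51 in SCG2 knockout libraries and between 13.4 and 20.2 in LILRB4 libraries.

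Several of the factors varied together across libraries. LILRB4 replicate 2 and WT replicate 2 were each the highest library of their genotype for the same 5 factors (Spi1, Cebpb, Cebpe, Irf5 and Runx1) and the lowest for Irf4 and Klf4. SCG2 knockout replicate 3 was the lowest of its genotype for 7 factors and the highest for Klf4. Over the 9 libraries log2(FPKM + 1) of Spi1 had a Pearson r of 0.95 with Irf5 (Spearman rho 0.93), 0.91 with Cebpb (rho 0.78), 0.85 with Runx1 (rho 0.88) and -0.88 with Klf4 (rho -0.83). Taken as deviations from the genotype means, these r values were 0.93, 0.87, 0.89 and -0.83, and without the 2 libraries farthest from the median of Spi1 they were 0.89, 0.80, 0.88 and -0.81 over 7 libraries. Other pairs were not related in this way: Spi1 had an r of 0.15 with Cebpa and -0.08 with Cebpd, which had 0.74 with each other, and Irf4 had an r of -0.03 with Cebpa and 0.05 with Cebpe. These r values are descriptions of 9 libraries that differ in depth and in the cell types they hold, with no test. Spi1 also followed the summed monocyte markers (r = 0.94) and ran against the T and NK cell markers (r = -0.85). Irf4 followed dendritic cell (r = 0.83), T and NK cell (r = 0.79) and B and plasma cell markers (r = 0.77). Irf4 also followed endothelial markers (r = 0.88), a sum that is mostly Pecam1. Within SCG2 knockout the marker sums did not all follow Irf4. Replicate 3 had the lowest Irf4 of that genotype, 6.74 FPKM, and its highest B and plasma cell sum, 82.2 CPM. Replicate 1 had its lowest T and NK cell sum, 554 CPM, and its lowest dendritic cell sum, 402 CPM, with Irf4 at 7.45 FPKM.

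Among 10746 other protein-coding genes with a mean of 1 FPKM or more, the genes most like Spi1 over the 9 libraries were Scimp, an adaptor of antigen-presenting cells (r = 0.993), Ctss, which encodes cathepsin S (r = 0.990), and Serf2 (r = 0.986). Nearest to Runx1 were Ccr1, a chemokine receptor (r = 0.986), the ETS factor gene Ets2 (r = 0.982) and Itgb2, the integrin beta chain of leukocytes (r = 0.981). Nearest to Irf5 were Cd300a, an inhibitory receptor (r = 0.983), Efhd2 (r = 0.981) and Nfil3, a basic leucine zipper factor (r = 0.979). Nearest to Irf4 were Ikbke, a kinase of innate signalling (r = 0.978), Slc1a5, a glutamine transporter (r = 0.974), and Wdr91 (r = 0.972). Nearest to Cebpb were Ap5s1 (r = 0.992), Scand1 (r = 0.980) and Cdc42ep2 (r = 0.977), and nearest to Klf4 were Fam189b (r = 0.963), Timp3, an inhibitor of matrix proteases (r = 0.942), and Cwf19l2 (r = 0.934). Cebpe was nearest to Retnla, a gene of alternatively activated macrophages (r = 0.956), Sde2 (r = 0.947) and Siglece (r = 0.937). Cebpa was nearest to Dnajc11 (r = 0.944), B630019K06Rik (r = 0.936) and Tusc1 (r = 0.934), and Cebpd to Cep63 (r = 0.949), Zfp622 (r = 0.928) and Dnajc2 (r = 0.921). With only 9 libraries and this many genes, a high r for some gene is the usual outcome.

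Genes that these factors are known to control, or that are otherwise linked to them, were set beside them. In LILRB4 against WT, 9 of 17 measured inflammatory genes linked to C/EBP beta, C/EBP delta or IRF5 rose and none fell, with a median log2 fold change of 1.55 beside -0.02 over all 9877 genes, of which 1.73% were higher and 0.516% lower. With recovered counts 8 of 19 rose, where 128 of 15743 genes were higher. At an unadjusted p under 0.05 edgeR counted 14 of 17 higher, where 11.3% of all genes were higher and 11.3% lower, and DESeq2 called 13 higher, where 6.2% of all genes were higher and 3.16% lower. The deposited tables give different values for 7 of these 17 genes, Il6, Tnf and Il10 among them. Csf3, which encodes G-CSF, stood at 54.9, 39.4 and 88.6 FPKM in LILRB4 and 9.31, 7.39 and 7.98 FPKM in WT, with edgeR at 2.87 on the log2 scale (SE 0.44, edgeR adjusted p = 0.0269). The interleukin subunit genes Il12a and Il23a rose by 2.09 and 2.03 (edgeR adjusted p = 0.0323 for both). Il10 stood at 2.01 with the deposited counts (edgeR adjusted p = 0.0422) and did not pass with recovered counts (2.50, edgeR adjusted p = 0.0656). Cebpb, Cebpd and Irf5 themselves stood at 0.10, -0.12 and 0.31 in the same comparison. The 9 calls came to 0 without LILRB4 replicate 1, LILRB4 replicate 3 or any 1 of the WT libraries, to 13 without LILRB4 replicate 2, and to 6 without SCG2 knockout replicate 2. The neutrophil marker sums given above were also higher in all LILRB4 than in all WT libraries, S100a8 is on both lists, and the part of these cells was not tested.

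In SCG2 knockout against LILRB4 the inflammatory genes had a median of -0.88 beside 0.03 over all genes, with 2 of 17 positive and none called by edgeR, beside 8 lower at an unadjusted p under 0.05 (6.18% of all genes) and 6 lower with DESeq2 (1.64% of all genes). Of these 6, Arg1, Il1b, S100a8 and Tnf have more deposited than recovered counts in LILRB4 replicate 1, and DESeq2 was run on deposited counts alone. Arg1 has 26183 deposited and 15191 recovered counts there, and the same values exchanged in SCG2 knockout replicate 1. In LILRB4 replicate 3, Arg1 has 26601 deposited and 22601 recovered counts. With recovered counts edgeR also counted 8 of the 17 lower at an unadjusted p under 0.05, where 857 of 15743 genes were lower. The smallest p-values were those of Cxcl2 at -1.13, Tnf at -1.01 (-0.89 with recovered counts) and Arg1 at -1.02 (-0.37 with recovered counts). In SCG2 knockout against WT their median was 0.83, with 14 of 17 positive and none called by edgeR (10 higher at an unadjusted p under 0.05 and 5 with DESeq2, beside 8.47% and 0.699% of all genes), and the smallest p-values were those of Il6 at 1.13, Il23a at 1.43 and Ptgs2 at 0.83.

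Myeloid receptor and lineage genes that PU.1, C/EBP alpha and RUNX1 are known to control had 1 of 17 measured members higher in LILRB4 than WT libraries, Csf2rb, the shared beta chain of the GM-CSF receptor. Csf2rb stood at 163, 147 and 117 FPKM in LILRB4 and 64.7, 85.8 and 79.7 FPKM in WT (log2 fold change 0.86, edgeR adjusted p = 0.0429, and 0.0590 with recovered counts, where it did not pass). It also lost its call when any 1 of LILRB4 replicates 1 and 3, the WT libraries, or SCG2 knockout replicates 1 and 2 was left out, while leaving out LILRB4 replicate 2 gave 2 higher genes, Csf2rb and Cybb, and 1 lower, Lyz1. Before adjustment the list had, at p under 0.05, 4 higher (Csf2rb, Csf2ra, Cybb and Ncf1) and 2 lower (Lyz1 and Lyz2) in LILRB4 against WT, beside 11.3% of all genes in each direction. In SCG2 knockout against LILRB4 the list had a median of -0.72 and 1 of 17 positive, with none called by edgeR. Unadjusted, it counted 13 lower genes and 1 higher, beside 6.18% and 4.88% of all genes, and DESeq2 called 3 lower (Cd14, Csf3r and Fcgr3) and 1 higher, beside 1.64% and 0.132%. Cd14 has 99098 deposited counts in LILRB4 replicate 1 and 49098 recovered counts there. By edgeR Cd14 stood at -1.28 with deposited counts and at -0.95 with recovered counts, and DESeq2 was run on deposited counts alone. The neutrophil marker sum and the monocyte sum without Lyz2, given above, were lower in all SCG2 knockout than in all LILRB4 libraries too, and their part was not tested. Of this list Csf1r, Itgam, Fcgr1, Cd14 and Lyz2 are also monocyte markers and Csf3r a neutrophil marker. Csf3r, the G-CSF receptor gene, stood at -0.74 (SE 0.18, edgeR adjusted p = 0.235) and Fcgr3, an IgG receptor gene, at -1.08 (SE 0.26, edgeR adjusted p = 0.235), beside Spi1 at -0.66. The positive one was Lyz2, which encodes lysozyme, at 849, 342 and 252 FPKM in SCG2 knockout and 11.4, 18.6 and 16.6 FPKM in LILRB4 (log2 fold change 4.97 with recovered counts, edgeR adjusted p = 0.264). In SCG2 knockout against WT the median was -0.47 with 4 of 17 positive and none called by edgeR (5 lower and 1 higher at an unadjusted p of less than 0.05, beside 6.11% and 8.47% of all genes, and 2 and 1 with DESeq2, beside 0.233% and 0.699%), and the smallest p-values were those of Lyz1 at -1.60, Lyz2 at 2.89 and Fcgr1 at -1.36.

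Granule genes that C/EBP epsilon is known to control had 5 of 11 members in the count table and none called by edgeR in any comparison. At an unadjusted p under 0.05 edgeR counted 3 lower in SCG2 knockout against LILRB4, 2 higher in LILRB4 against WT and 1 lower in SCG2 knockout against WT, beside 6.18%, 11.3% and 6.11% of all genes, and DESeq2 called 1, 2 and 1 of them. DESeq2 called 1.64%, 6.2% and 0.233% of all genes in these directions. With recovered counts the same 5 genes gave 2, 0 and 1, where 857 of 15743 genes were lower, 1616 higher and 831 lower. Their medians were -0.92 in SCG2 knockout against LILRB4, 0.10 in LILRB4 against WT and -0.60 in SCG2 knockout against WT. Mmp8, a collagenase of granules, had the smallest p in SCG2 knockout against LILRB4, at -1.40 (edgeR adjusted p = 0.256) and -1.10 with recovered counts. Cd177, a neutrophil surface gene, stood at -2.19 in SCG2 knockout against LILRB4 (edgeR adjusted p = 0.359) and -2.72 in SCG2 knockout against WT (edgeR adjusted p = 0.317). Mmp8 and Mmp9, another granule protease gene, were the 2 higher in LILRB4 against WT, at 1.20 and 0.80, but recovered counts gave 0.89 and 0.42 and an unadjusted p above 0.05 for both. Both have a higher value for LILRB4 replicate 1 in the count table. Mmp8 passed without SCG2 knockout replicate 1. The neutrophil markers, which include Mmp8, summed higher in all LILRB4 libraries than in all SCG2 knockout and all WT libraries, as given above, and their part was not tested. Alternative-activation genes linked to IRF4 and KLF4 had none of 10 measured members called by edgeR in any comparison, with medians of -0.01, 0.48 and 0.37 in the same order of comparisons. Kdm6b, a histone demethylase gene that is not taken here as a target of IRF4, stood at 0.96 in LILRB4 against WT (edgeR adjusted p = 0.0623). All 10 were positive there, beside Irf4 at 1.09. Kdm6b and Arg1 had an unadjusted p under 0.05 (11.3% of all genes were higher) and were called by DESeq2 (6.2% of all genes were higher). Arg1 stood at 0.72 with deposited counts and at 0.43 with recovered counts (edgeR unadjusted p = 0.298). With recovered counts Kdm6b and Ccl17 were the genes under 0.05, where 1616 of 15743 genes were higher. Ccl22 passed in LILRB4 against WT without LILRB4 replicate 2. The unadjusted count was 1 lower in SCG2 knockout against LILRB4, Arg1, whose values differ between the tables and which DESeq2 also called, and 2 higher in SCG2 knockout against WT, Pdcd1lg2 at 0.85 and Ccl17 at 0.76, where DESeq2 called 0, beside 6.18% of all genes lower and 8.47% higher in these comparisons. DESeq2 called 1.64% of all genes lower in SCG2 knockout against LILRB4. With recovered counts the same 10 genes gave 0 lower in SCG2 knockout against LILRB4 and 3 higher in SCG2 knockout against WT. Of all 15743 genes, 857 were lower and 1224 higher in these comparisons.

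Among 37 other measured myeloid and haematopoietic factor genes, 1 rose in LILRB4 against WT. At an unadjusted p under 0.05 edgeR counted 10 higher and 0 lower there, beside 11.3% of all genes in each direction, and DESeq2 called 7 higher, beside 6.2%. The unadjusted count was 2 higher and 8 lower in SCG2 knockout against LILRB4 (4.88% and 6.18% of all genes) and 7 higher and 0 lower in SCG2 knockout against WT (8.47% and 6.11%), where DESeq2 called 1 each, Gata2 and Etv3. Both were higher, beside 0.132% and 0.699% of all genes called higher by DESeq2. The gene that rose was Zeb2, a repressor that acts in monocytes and NK cells, at 30.7, 20.4 and 23.2 FPKM in LILRB4 and 10.2, 11.4 and 14.1 FPKM in WT (log2 fold change 1.03, SE 0.21, edgeR adjusted p = 0.0365, and 0.0453 with recovered counts). Its LILRB4 libraries all lay above its WT libraries, and its SCG2 knockout libraries, at 14.0, 21.3 and 17.8 FPKM, overlapped both. The call was lost without LILRB4 replicates 1 or 3, any 1 of the WT libraries or SCG2 knockout replicate 2, and 6 genes of the list passed without LILRB4 replicate 2. Etv3, an ETS-family repressor gene, had the smallest p of the list in SCG2 knockout against WT, at 0.92 (SE 0.23, edgeR adjusted p = 0.317). Irf8, the partner of PU.1 in monocyte commitment, stood at 49.7, 69.3 and 74.1 FPKM in SCG2 knockout and 44.4, 26.0 and 27.2 FPKM in WT, a log2 fold change of 1.01 (edgeR adjusted p = 0.317). Gata2, a factor of progenitors and mast cells, had the smallest p of the list in SCG2 knockout against LILRB4, at 0.81 (edgeR adjusted p = 0.235).

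None of the 18 other measured members of the C/EBP, IRF and KLF families was called by edgeR in any comparison, with 2 of 18 at an unadjusted p under 0.05 in SCG2 knockout against LILRB4 (Klf5 and Irf7), 3 in LILRB4 against WT (Klf13, Irf7 and Cebpg) and 2 in SCG2 knockout against WT (Irf7 and Klf6), beside 11.1%, 22.6% and 14.6% of all genes. DESeq2 called Klf13 higher in LILRB4 against WT and Irf7 lower in SCG2 knockout against WT, beside 6.2% and 0.233% of all genes. The unadjusted counts are near or below the shares over all genes. Irf7, an interferon-induced factor, had the smallest p in SCG2 knockout against WT, at -0.83 on the log2 scale (SE 0.17, edgeR adjusted p = 0.317), and stood at -0.42 in SCG2 knockout against LILRB4. Klf13 stood at 0.55 in LILRB4 against WT (edgeR adjusted p = 0.0682) and Klf5 at 0.80 in SCG2 knockout against LILRB4 (edgeR adjusted p = 0.318). The medians of this list were 0.08, -0.08 and 0.05 in SCG2 knockout against LILRB4, LILRB4 against WT and SCG2 knockout against WT, beside 0.03, -0.02 and 0.00 over all genes.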

How the data were processed

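The authors deposited 2 tables for the 9 libraries, raw counts of 9877 genes and FPKM of 54532 genes with their lengths. Per the submitters' processing notes, HISAT2 2.0.5 and featureCounts 1.5.0-p3 were used. The sources used here do not give the build, annotation or strand setting. Gene ends matched GENCODE on GRCm38 for 98.3% of 54409 identifiers. All but 1 of the 9877 genes of the count table are protein-coding and reach 100 counts in both LILRB4 replicate 1 and LILRB4 replicate 3, so the table favours genes expressed there, and Cebpe (53 recovered counts in LILRB4 replicate 1) is not in it. Multiplying each deposited FPKM by gene length and a constant of its library returned whole numbers, called recovered counts, for 100% of values within 0.01, and these differed from the count table at 56 of 88893 values in 47 genes. Recovered totals were 15004944 to 28070495, and the limit that a count of 0 allows, 3 counts, is 0.107 to 0.200 CPM for counting error alone. No pair of replicates shared equal counts in more than 0.466% of genes.

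Deposited counts were fitted with edgeR 4.0.16 in R 4.3.3 (filterByExpr with a minimum count of 10, TMM factors, robust quasi-likelihood over all 9 libraries with 6 residual degrees of freedom), and "edgeR adjusted p" is this test with Benjamini-Hochberg adjustment over all genes, at a threshold of 0.05. Cebpe was tested with limma 3.58.1 on log2(FPKM + 1) over 12910 genes with 1 FPKM or more in 3 libraries or more, a scale that understates changes of low genes. Alternatives were recovered counts, DESeq2 1.42.0, RLE factors, no filter, a pseudocount of 0.1, only the groups compared, a replicate block and leaving out each library. The fits were tested on simulated data first. The members and gene lists were chosen with earlier results of these data known. Every member was named; of each list, genes past the threshold were named, at most 4 per comparison by size of change, or otherwise up to 3 by smallest p, and a few genes outside this rule that passed without a library or made up a count of 5 or fewer were named after their values were seen. Likeness used the 3 highest Pearson r per member.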

Additional observations from a re-analysis of the deposited data

How the results depend on the processing

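Genes higher and lower in LILRB4 than WT numbered 171 and 51 with edgeR, 612 and 312 with DESeq2, 91 and 11 with limma on log2(FPKM + 1), 86 and 11 with a pseudocount of 0.1, 0 and 0 with limma and no filter, 69 and 3 with only the groups compared, and 128 and 9 with recovered counts. Leaving out 1 library gave 0 to 541 higher and 0 to 148 lower, and the fit with the replicate number as a block gave 1 and 0. The numbers were not taken to pair the libraries, since same-numbered libraries correlated at -0.5436 to 0.6601 and not every library correlated best with its own number. Of the factors, 1 (Irf4) was higher with DESeq2, at 1.12, and 0 to 1 when 1 library was left out, up to 1.73. Genes higher and lower numbered 13 and 162 in SCG2 knockout against LILRB4 and 69 and 23 in SCG2 knockout against WT with DESeq2, and leaving out 1 library gave 0 to 1 higher in SCG2 knockout against LILRB4; the cause of these differences was not tested. No factor passed in either comparison under any alternative run. Spi1 in LILRB4 against WT, -0.02, turned to 0.004029 with recovered counts, 0.008362 with DESeq2, 0.008392 with RLE factors, 0.004097 with only the groups compared, and 0.03382, 0.03461 and 0.03382 in the limma fits. Cebpa in SCG2 knockout against WT, 0.08, turned to -0.05483, -0.05871 and -0.05483 in the limma fits. With 1 library left out, signs turned in LILRB4 against WT for Spi1 (-0.27 to 0.33), Cebpb (-0.06157 to 0.44) and Cebpd (-0.34 to 0.22), in SCG2 knockout against LILRB4 for Cebpa (-0.11 to 0.68) and Irf4 (-0.30 to 0.0341), and in SCG2 knockout against WT for Cebpa (-0.50 to 0.30), Cebpd (-0.05941 to 0.51) and Cebpe (-0.35 to 0.13). Cebpe rests on the fewest counts of the 9 factors, 21 to 177 recovered counts per library.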
